A study of Homo sapiens with 21 samples.

Results

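HepG2, a human hepatocellular carcinoma line, was compared after 24 h with 1 µM caffeine and after 24 h without it. The comparison was chosen by the dose in the sample labels and holds 6 of the 21 libraries of the series, 3 at 1 µM and 3 controls. Per the labels, control and treated cells alike had their serum-containing medium removed, were washed in phosphate-buffered saline and were then held in serum-free DMEM. The controls are labelled untreated and received the same medium without caffeine, so every library comes from serum-deprived cells of 1 tumour line. Cells were detached with trypsin-EDTA, RNA was taken up in Trizol and poly(A) RNA was selected on poly(dT) beads. The neighbouring doses used below, 0.1 µM and 10 µM, were handled in the same way with 3 libraries each. The remaining groups, 0.01, 100 and 1000 µM caffeine for 24 h with 3 libraries each, enter the fit of all 21 libraries and some values below. The labels call the 3 libraries of a group biological replicates, without saying whether they came from separate passages or days, so p-values measure the spread between these cultures only.

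Caffeine is a methylxanthine that blocks adenosine receptors and, at higher concentrations, inhibits cyclic nucleotide phosphodiesterases and acts on calcium release channels of the endoplasmic reticulum. In the liver it is cleared mainly by the cytochrome P450 enzyme CYP1A2. Several of the genes described below encode C2H2 zinc finger proteins of the KRAB family. These proteins bind DNA through tandem zinc fingers and recruit the corepressor TRIM28 to transposable elements, and their genes lie in clusters of recent duplicates, chiefly on chromosomes 19 and 7.

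Total counts were 32759535, 39571761 and 27867586 in control replicates 1 to 3 and 33296758, 38826095 and 34891395 at 1 µM. Replicate 3 at 1 µM was singled out by its mitochondrial transcripts, which made up 4.75% of its counts against 10.5% and 11.6% in replicates 1 and 2. The controls had 10.8%, 12.3% and 14.2%, and the 10 µM libraries 4.82% to 4.94%. The low share was not particular to 10 µM, since 1 library of the 100 µM group (replicate 2, 4.72%) and a pair from the 1000 µM group (replicates 1 and 2, 4.86% and 4.85%) also had it, while the other 3 libraries of these doses had 11.8% to 12.8%. On the proportions of the 13 mitochondrial mRNAs, replicate 3 clustered with the 10 µM libraries and the other low-share libraries just named, while replicates 1 and 2 fell with the controls. The comparisons are therefore also given with replicates 1 and 2 alone. All 19 hepatocyte markers listed (albumin, alpha-fetoprotein and apolipoproteins among them) were detected, and their summed level, scaled by total counts, was 39140 to 44274 counts per 1000000 mapped to features (CPM) in the controls and 38619 to 43396 at 1 µM. Of 14 markers of other cell types, 10 stayed below 1 CPM in all 6 libraries and 3 of these had no count, COL1A2, LUM and CD3E. Lysozyme (LYZ) supplied most of the summed level of these 14, which was 940 to 997 CPM in the controls and 924 to 1361 at 1 µM.

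At 1 µM, 17 features fell (0.0947% of those tested) and 2 rose (0.0111%), and the differences were small. The falls ran from 1.34-fold to 1.80-fold, and led among annotated genes with the zinc finger genes ZNF107, ZNF117 and ZNF92. The other annotated genes among them were SMARCAD1, SMC5, GEN1, KIF20B, CMPK1, FRS2, KCTD9, ETAA1, CCDC82, ZNF260, RBAK, ARID4B and ANKRD26. The rises were in JPT1, which encodes a microtubule-associated protein of the Jupiter family, and in an unannotated locus. Of 17951 features tested, these 19 are 0.106% (edgeR's quasi-likelihood test with all 21 libraries in the fit, Benjamini-Hochberg adjusted p 0.0411 to 0.0496). An unadjusted p below 0.05 was reached by 2811 features, or 15.7%, and the median log2 fold change of all features was 0.01.

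Without replicate 3 no feature passed the same test, while 2154 of 18382 tested (11.7%) had an unadjusted p below 0.05. All 19 features kept their direction with replicates 1 and 2 alone, with unadjusted p from 1.28e-05 to 0.000474 and adjusted p from 0.123 to 0.134. The difference shrank for 15 of them and grew for 4. The 19 were selected in a fit that already held replicates 1 and 2 and the same controls. Their kept direction, low unadjusted p and shrinkage are therefore a description. When the mitochondrial library set was fitted as a term, replicate 3 was the only 1 µM library outside the set of the controls. The term takes up the difference of replicate 3, so the estimates rest on replicates 1 and 2. ZNF107 was at -0.65 and JPT1 at 0.41, as without replicate 3. In this fit 113 features passed (0.629%), 27 higher (0.15%) and 86 lower (0.479%), and 18 of the 19 were among them. The feature that missed was ARID4B, at an adjusted p of 0.0505. In a fit of the 6 libraries alone 4 features passed (0.0243%), and with replicate 3 left out of it 10 passed (0.0596%), none of them among the 19.

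**Figure D1:**
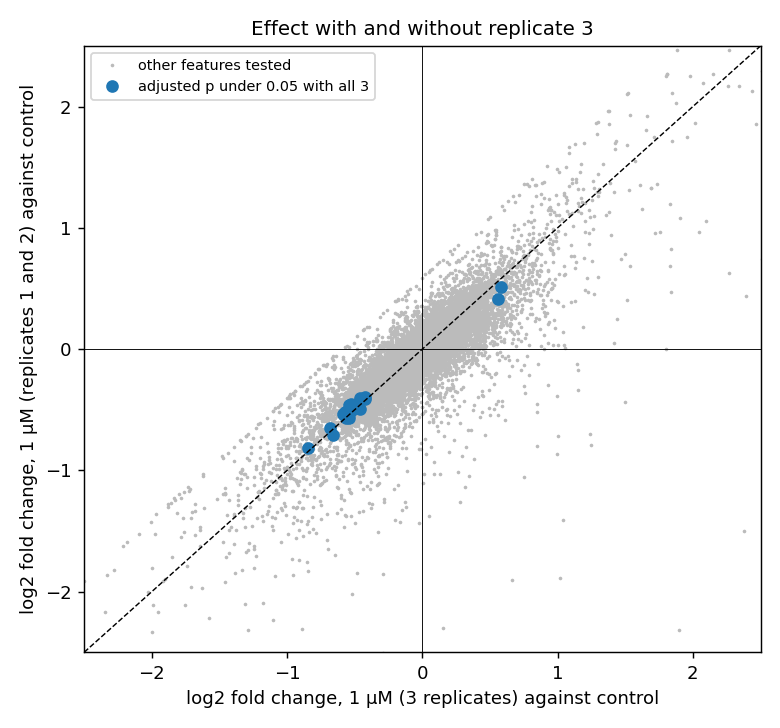
log2 fold change of each feature against the controls, with all 3 libraries at 1 µM (horizontal) and with replicates 1 and 2 alone (vertical). Filled circles are the 19 features that passed with all 3, all of which lie on the same side of 0 on both axes. They were selected with replicates 1 and 2 in the fit, so this is a description. Beyond the axis limit of 2.5 lie 159 features.

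Of the 4 numbered ZNF genes that passed, ZNF107, ZNF117 and ZNF92 sit in 1 cluster on the long arm of chromosome 7. ZNF107 (GRCh38 chr7:64666083-64711582, plus strand) had 11.4, 12.9 and 13.6 CPM in the controls and 8.09, 7.99 and 7.56 CPM at 1 µM. The 2 groups did not overlap and the libraries at 1 µM lay close together. The log2 fold change was -0.68 ± 0.12 (SE, 3 against 3 libraries, adjusted p 0.0411), and -0.65 with replicates 1 and 2 alone (unadjusted p 0.000118). ZNF117 (chr7:64971776-65006684, minus strand) had 18.5, 16.1 and 21.7 CPM in the controls against 10.9, 11.9 and 12.6 CPM. Every treated library was below every control, and replicate 3 was the highest of the treated ones. Its log2 fold change was -0.66 ± 0.11 (SE, adjusted p 0.0411) and -0.71 without replicate 3. ZNF92 (chr7:65373799-65401135, plus strand) had 22.9, 24.4 and 27.1 CPM in the controls against 16.9, 17.3 and 15.2 CPM. Here too the groups were separate, with a log2 fold change of -0.59 ± 0.10 (SE, adjusted p 0.0411) and -0.53 without replicate 3. ZNF117 overlaps the endogenous retrovirus gene ERV3-1, and without knowledge of how the authors assigned shared reads its count is uncertain. ERV3-1 itself had 23.4, 21.0 and 24.5 CPM in the controls against 18.4, 21.7 and 17.3 CPM, overlapping groups that did not pass the test. The sum of both genes was 41.9, 37.1 and 46.2 CPM in the controls and 29.4, 33.6 and 29.9 CPM at 1 µM, with every treated library still below the controls.

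The other measured genes of this cluster lay the same way without passing. ZNF680 had 12.1, 14.3 and 17.8 CPM in the controls and 10.8, 10.2 and 9.83 CPM at 1 µM (log2 fold change -0.52, adjusted p 0.111). ZNF138 had 9.78, 10.6 and 10.2 CPM against 8.16, 6.81 and 6.67 CPM (-0.50, adjusted p 0.115). ZNF273 had 6.69, 6.80 and 6.60 CPM against 5.28, 5.55 and 4.85 CPM (-0.36, adjusted p 0.164). Of 10 genes listed for the cluster, 6 were in the table under their symbols and all 6 passed the filter on low counts. In all 6 the libraries at 1 µM were below every control, an arrangement that 8.85% of all features showed. Their median log2 fold change was -0.55 with all libraries and -0.51 with replicates 1 and 2 alone. Across the genome, 429 genes named ZNF with a number were tested and 4 of them fell (0 rose), beside 0.0947% of all features that fell, with a median log2 fold change of -0.09, of which the fourth is ZNF260 on chromosome 19. The cluster was known to stand out in earlier results of these data when it was listed, so its counts describe it and support nothing.

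**Figure D2:**
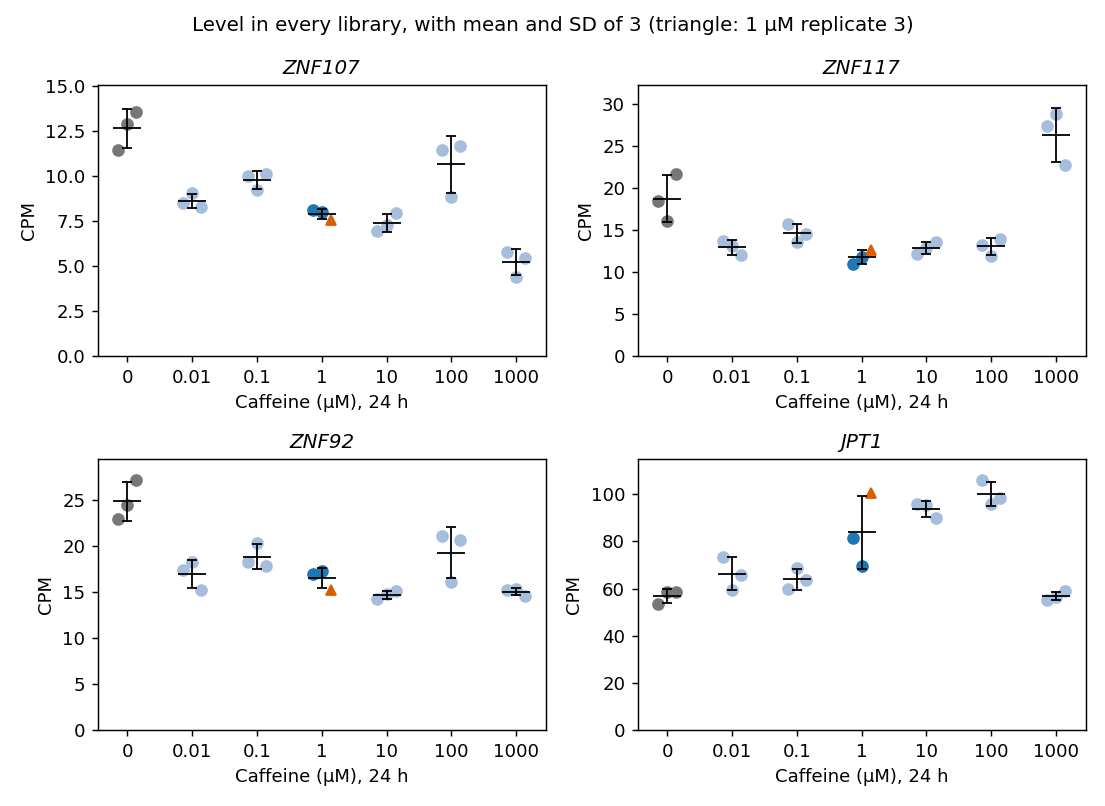
Level in CPM (vertical, from 0) of ZNF107, ZNF117, ZNF92 and JPT1 in each library of the 7 dose groups (horizontal, caffeine in µM), with the mean and SD of 3 libraries as a bar. At 1 µM the zinc finger genes sit below all controls and JPT1 above, and replicate 3 (triangle) is the highest JPT1 value of its group at 100.5 CPM.

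The start regions of these genes are shown because they share sequence with each other and with ZNF43 on chromosome 19, which lay the same way. Each run holds 140 bases before a RefSeq start site and 20 from it on (GRCh38.p14), in lower case, with the 7 letters CCAATCA and the longest stretch common to 6 of 7 compared windows in capitals. ZNF117 has its GENCODE 29 start, base 65006684, inside the ERV3-1 window.
ZNF107, chr7:64665993-64666152, plus strand: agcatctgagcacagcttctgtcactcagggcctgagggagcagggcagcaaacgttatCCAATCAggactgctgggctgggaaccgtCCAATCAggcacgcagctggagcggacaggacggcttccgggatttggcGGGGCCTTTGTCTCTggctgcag
ZNF92, chr7:65373715-65373874, plus strand: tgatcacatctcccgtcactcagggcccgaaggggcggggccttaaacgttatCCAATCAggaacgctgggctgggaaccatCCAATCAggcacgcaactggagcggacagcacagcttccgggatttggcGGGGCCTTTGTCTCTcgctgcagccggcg
ERV3-1 and ZNF117, chr7:65006668-65006827, minus strand: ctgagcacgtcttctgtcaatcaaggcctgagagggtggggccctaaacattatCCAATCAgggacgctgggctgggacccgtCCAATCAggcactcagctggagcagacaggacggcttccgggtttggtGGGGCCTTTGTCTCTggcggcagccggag
ZNF138, chr7:64794288-64794447, plus strand: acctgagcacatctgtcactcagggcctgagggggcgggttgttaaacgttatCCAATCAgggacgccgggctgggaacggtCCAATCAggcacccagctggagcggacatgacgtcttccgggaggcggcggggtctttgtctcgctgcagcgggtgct
ZNF43, chr19:21836163-21836322, minus strand: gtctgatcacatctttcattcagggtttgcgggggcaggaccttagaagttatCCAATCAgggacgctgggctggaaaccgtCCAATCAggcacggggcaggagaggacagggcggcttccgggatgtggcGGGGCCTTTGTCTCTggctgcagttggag

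Aligned in pairs, the 7 windows compared (these and those of ZNF680 and ZNF273) were 78.4% to 89.4% identical. Each holds CCAATCA at 2 places, a heptamer found on either strand in 6.95% of 35116 promoter sequences of 300 bases. The stretch GGGGCCTTTGTCTCT occurred in 16 of these promoters, or 0.0456%, of which 10 are on chromosome 19 and 5 on chromosome 7. It is absent as such from the ZNF138 window. Of the genes with it, 12 passed the filter on low counts, including the 6 whose windows defined it, and all 12 had a log2 fold change below 0 (46.0% of tested genes with a promoter sequence did). Their median was -0.49, and -0.46 with replicates 1 and 2, against 0.02 over 11155 tested genes with a promoter sequence. Among the 6 that did not define it, ZNF714, ZNF737 and ZNF431 had every treated library below every control and ZNF254, ZNF724 and ZNF85 did not, beside 8.18% of tested genes with a promoter sequence that did. ZNF85 was below 1 CPM in all 6 libraries, and the control mean of ZNF254 came mostly from control replicate 3. In the lowest of 5 groups of protein-coding genes by GC content, described below, 84.7% of genes had a log2 fold change below 0. ZNF107 and ZNF92 are in that group. Genes with the stretch were not compared with genes of like GC content. Whether their falls go beyond the GC trend was not tested. The stretch was picked after the values were seen, and the count of 12 is a description of gene copies that share sequence. The letters GCGTG, the core bound by the aryl hydrocarbon receptor, were in 36.5% of promoters and the cAMP response element TGACGTCA in 1.85%, and the median log2 fold changes of tested genes with them were 0.03 and 0.02.

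ZNF43 (chr19:21804949-21852125, minus strand) was among the 6 genes farthest below the controls with separate groups and an unadjusted p below 0.01 with and without replicate 3. It had 11.3, 14 and 15.5 CPM in the controls and 8.99, 8.36 and 8.68 CPM at 1 µM. The difference of -0.65 on the log2 scale missed the threshold (adjusted p 0.0886) and was -0.64 without replicate 3.

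The smallest p of the comparison belonged to SMARCAD1. This gene (chr4:94207611-94291292), a chromatin remodeller of the SWI/SNF family that takes part in DNA end resection, had 95.2, 95.2 and 107 CPM in the controls and 67.6, 72.7 and 76.1 CPM at 1 µM. The groups were separate, with a log2 fold change of -0.46 ± 0.08 (SE, adjusted p 0.0411) and -0.50 without replicate 3. SMC5 (chr9:70258962-70354888), an ATPase of the SMC5/6 complex, had 76.1, 71.8 and 90.1 CPM in the controls and 54.6, 56.5 and 54.2 CPM. Its groups were separate and its log2 fold change was -0.53 (adjusted p 0.0411), and -0.51 without replicate 3. GEN1, a resolvase of Holliday junctions, had 33.1, 31.5 and 36.5 CPM against 22.6, 22.8 and 23.8 CPM, a log2 fold change of -0.54 (adjusted p 0.0411), and -0.57 without replicate 3. ETAA1, an activator of the checkpoint kinase ATR at stalled replication forks, had 42.0, 43.7 and 53.3 CPM against 35.7, 31.8 and 28.7 CPM (-0.53, adjusted p 0.0476, and -0.45 without replicate 3). ATR itself had 21.4, 18.5 and 25 CPM against 18.3, 20.2 and 22.5 CPM, overlapping groups that did not pass.

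KIF20B, a kinesin of cytokinesis, had 94.7, 93.1 and 122 CPM in the controls and 73.6, 70.2 and 64.5 CPM at 1 µM (-0.57, adjusted p 0.0411, and -0.52 without replicate 3). CMPK1, which phosphorylates UMP and CMP, had 267, 275 and 295 CPM against 224, 195 and 204 CPM (-0.42, adjusted p 0.0411, and -0.41 without replicate 3). FRS2, an adaptor of fibroblast growth factor receptors, had a log2 fold change of -0.54 and RBAK, a KRAB zinc finger partner of the retinoblastoma protein on chromosome 7 outside the cluster, one of -0.43. ARID4B, a subunit of SIN3 deacetylase complexes, changed by -0.46, ANKRD26, a protein of centriolar appendages, by -0.48 and ZNF260 by -0.56. KCTD9, CCDC82 and an unannotated locus complete the list at -0.47, -0.54 and -0.85. Without replicate 3 the log2 fold changes of all 17 lay between -0.82 and -0.40. Among the 17 falls, all had every treated library below every control, as 8.85% of all features did. The 17 were selected by this contrast, so their separation follows largely from the selection. Replicate 3 was the lowest treated library in 10, and control replicate 3 was the highest control in 16. Over the 2601 protein-coding genes of lowest GC content, described below, control replicate 3 was above controls 1 and 2 by a median log2 of 0.25.

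**Figure D3:**
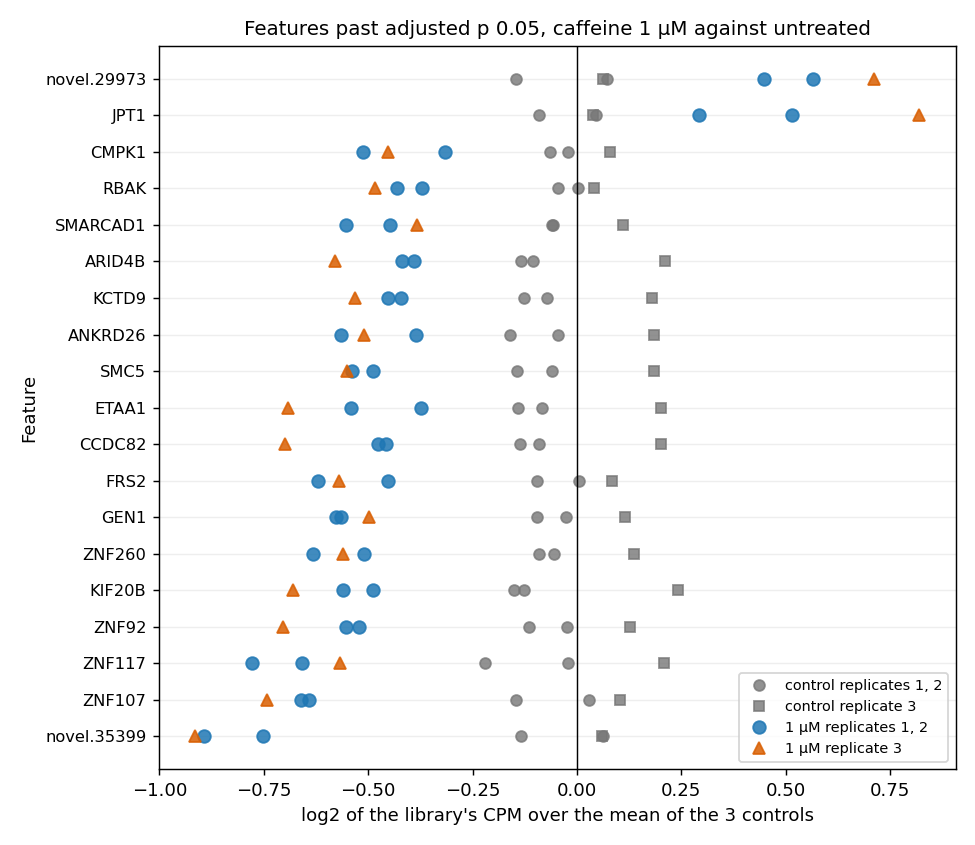
Each of the 19 features that passed (vertical, ordered by log2 fold change) with its 6 libraries placed by the log2 of their CPM over the mean of the 3 controls (horizontal). Treated libraries (blue circles, orange triangle for replicate 3) do not overlap the controls (grey, square for replicate 3) in any of them, and control replicate 3 is the highest control in 16 of the 17 falls. The features were selected by this contrast, so their separation is a description.

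JPT1 (chr17:75135248-75168281, minus strand) had 53.4, 58.8 and 58.5 CPM in the controls and 81.3, 69.7 and 100.5 CPM at 1 µM. All treated libraries were above the controls, and replicate 3 was apart from its group. The log2 fold change was 0.56 ± 0.11 (SE, adjusted p 0.0476) with all libraries and 0.41 with replicates 1 and 2 alone (unadjusted p 0.000367). The 10 µM libraries had 96.0, 95.3 and 90.0 CPM, near replicate 3 and above replicates 1 and 2. The contrast of replicate 3 with replicates 1 and 2 did not pass for JPT1 (log2 difference 0.41, adjusted p 0.119). The unannotated locus that rose had 53.2, 61.9 and 61.5 CPM in the controls and 87.1, 80.3 and 96.4 CPM at 1 µM, and its log2 fold change of 0.58 was 0.51 without replicate 3.

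The genes that fell were of low GC content. All 16 protein-coding genes that fell were in the lowest of 5 equal groups of 13002 tested protein-coding genes by GC content of the longest transcript (31.1% to 41.1%), and JPT1, at 54.2%, was in group 4. The median log2 fold change over these groups, from low to high GC, was -0.18, -0.05, 0.04, 0.11 and 0.17, and was -0.21 in the lowest and 0.16 in the highest with replicates 1 and 2 alone. Control replicate 3 stood apart from controls 1 and 2 along the same property, by a median of 0.25 in the lowest group and -0.34 in the highest. When the GC trend of each library was removed, 2 features passed, both higher, DMAC1 at 0.60 and MRPL13 at 0.50, and none of the 19. The 2 unannotated loci have no GC value and were not adjusted. The 17 annotated genes kept their direction with unadjusted p from 2.21e-05 (GEN1) to 0.0193 (ETAA1) and adjusted p from 0.0662 to 0.352. ZNF107 was then at -0.44, ZNF117 at -0.38, ZNF92 at -0.33 and SMARCAD1 at -0.22, and the median of the 6 cluster genes went from -0.55 to -0.31. With 1 control left out, 0, 37 and 0 features passed (without replicate 1, 2 and 3), and the 19 kept their direction. The absolute log2 fold changes of the 19 were then 0.42 to 0.81, 0.43 to 0.91 and 0.34 to 0.81, against 0.42 to 0.85 with all controls. Long transcripts were also more frequent among the falls, with a median of 6037 bases against 3563 over all protein-coding genes. In 5 equal groups by transcript length, from short to long, the median log2 fold change was 0.15, 0.08, 0.02, -0.01 and -0.10. The removal of the GC trend was added after seeing the data, and the part of base composition in the falls was otherwise not tested.

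**Figure D4:**
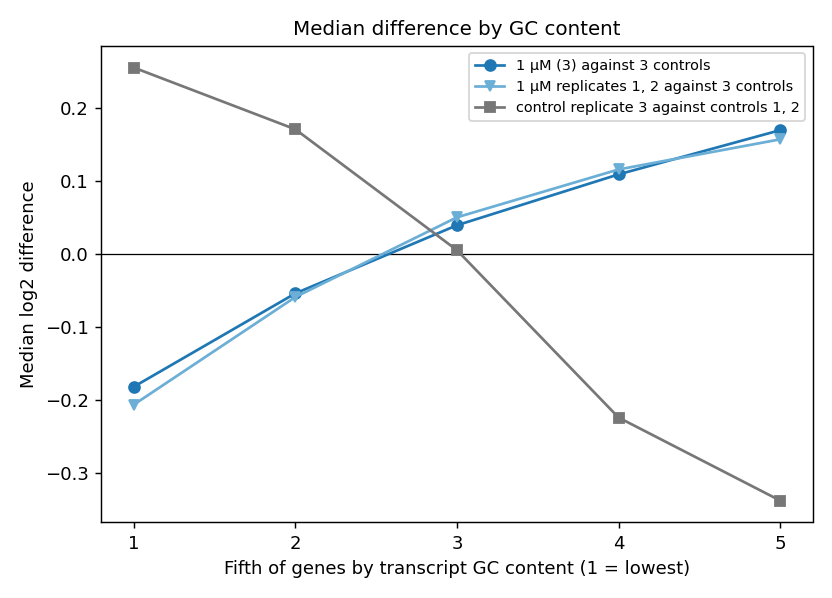
Median log2 difference (vertical) in 5 equal groups of protein-coding genes by GC content of the longest transcript (horizontal, 1 is lowest). The difference of 1 µM from control goes from -0.18 to 0.17, much the same without replicate 3, while control replicate 3 differs from the other controls in the opposite direction, from 0.25 to -0.34.

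Among the receptors and enzymes that caffeine acts on, none of 22 tested members passed in either direction, beside 0.106% of all features. At that share most lists of this size would hold no call, so a count of 0 in this and the following lists is no result about them. The median log2 fold change was -0.08 (-0.11 without replicate 3). ADORA2B, an adenosine receptor coupled to adenylyl cyclase, had 30.1, 29.2 and 26.2 CPM in the controls and 35.1, 36.0 and 34.9 CPM at 1 µM. The groups were separate, and the log2 difference of 0.31 ± 0.08 (SE) did not pass (adjusted p 0.101, unadjusted p 0.000756, and 0.00154 without replicate 3). The phosphodiesterase PDE4D had 24.3, 25.6 and 28.5 CPM against 19.1, 19.6 and 22.3 CPM (-0.36, adjusted p 0.149, and -0.43 without replicate 3). PDE3B had 55.4, 54.5 and 69.9 CPM against 48.4, 48.9 and 52.6 CPM (-0.26, adjusted p 0.193, and -0.30 without replicate 3). In both every treated library was below the controls, without passing. The other members of at least 5 CPM (PDE4A, PDE4C, PDE7A, PDE8A, PDE9A, PDE11A, ITPR1, ITPR2, ITPR3, ATM, ATR, PRKDC, MTOR) had overlapping groups and log2 differences between -0.21 and 0.24. ATM had 101, 84.4 and 102 CPM in the controls and 66.9, 79.3 and 103 CPM at 1 µM, so replicates 1 and 2 lay below the controls and replicate 3 did not (log2 difference -0.21, and -0.39 without replicate 3).

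The lists of signalling downstream of these targets are given by their values, with 0 calls beside 0.106% of all features. The aryl hydrocarbon receptor list had 7 tested members with a median of -0.06 (-0.05 without replicate 3), in which NQO1, a quinone reductase, had 453, 457 and 488 CPM against 532, 501 and 553 CPM (0.18, adjusted p 0.220, and 0.15 without replicate 3). AHR, the receptor itself, lay the other way with 94.2, 86.4 and 113 CPM against 74.7, 87.3 and 77.6 CPM (-0.29, adjusted p 0.272, and -0.27 without replicate 3). Its partner ARNT was at -0.19 (adjusted p 0.352, and -0.05 without replicate 3), and the groups of both genes overlapped. CYP1A1 had 2.57, 3.12 and 2.95 CPM in the controls and 3.27, 2.60 and 2.22 CPM at 1 µM, with overlapping groups. Of 12 targets of cAMP and CREB, the immediate early gene FOS had 50.9, 46.1 and 41.4 CPM against 38.4, 28.8 and 21.1 CPM. The phosphatase DUSP1 had 46.6, 49.9 and 41.6 CPM against 39.5, 34.5 and 27.5 CPM. Both had every treated library below the controls, with adjusted p of 0.347 and 0.177 (log2 differences -0.65 and -0.45, and -0.46 and -0.31 without replicate 3), and the list's median was -0.08 (-0.02 without replicate 3).

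Metabolic and growth lists likewise held 0 calls, beside 0.106% of all features. Sterol synthesis genes (24 tested) had a median of 0.15 with and without replicate 3, and their lowest p belonged to SC5D, lathosterol oxidase, at -0.39 (adjusted p 0.116) against the list's direction. The medians were 0.09 for 18 genes of the unfolded protein and amino acid response, 0.08 for 19 p53 targets, 0.13 for 21 replication genes, 0.00 for 21 mitotic genes and -0.05 for 14 SR splicing factors. Without replicate 3 these medians were 0.14, 0.05, 0.12, 0.05 and -0.003, in the same order. In the mitotic list BIRC5 (survivin) had 20.5, 22.9 and 24.2 CPM in the controls and 31.7, 25.8 and 42.4 CPM at 1 µM. CENPE, a kinetochore kinesin, lay the other way with 37.5, 35.2 and 43.2 CPM against 27.3, 28.3 and 27.9 CPM. Their adjusted p were 0.0975 and 0.0748. The log2 difference of BIRC5 went from 0.56 to 0.35 without replicate 3 (adjusted p 0.273), and that of CENPE was -0.47 with and without it.

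The values of the 13 mitochondrial mRNAs are a description only, since their share is what singled out replicate 3. Relative to the mean of the controls, their median was -0.33 in replicate 1, -0.28 in replicate 2 and -1.47 in replicate 3 on the log2 scale. MT-CO1, a subunit of cytochrome c oxidase, had 39970, 45640 and 47991 CPM in the controls and 37837, 45428 and 15999 CPM at 1 µM. Nuclear genes of the respiratory chain lay the other way, with 66 of 75 tested above 0 (48.8% of all features were below 0) and a median of 0.19, or 0.09 without replicate 3. Their medians in replicates 1 to 3, taken in the same way, were 0.19, -0.03 and 0.35. Cytosolic ribosomal protein genes had 63 of 78 above 0 and a median of 0.16, or 0.10 without replicate 3. Their medians in replicates 1 to 3 were 0.23, -0.01 and 0.24. RPL13 had the smallest p among them, with 654, 667 and 574 CPM in the controls and 965, 783 and 1078 CPM at 1 µM (0.58, adjusted p 0.0943, and 0.47 without replicate 3).

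Some genes of at least 5 CPM had separate groups and an unadjusted p below 0.01 with and without replicate 3, and did not pass. TXNDC5 (chr6:7881517-7910814), a protein disulfide isomerase of the endoplasmic reticulum, had 125, 131 and 124 CPM in the controls and 233, 310 and 211 CPM at 1 µM. The groups were far apart, at 0.99 ± 0.21 (SE, adjusted p 0.0748, and 1.10 without replicate 3), and it passed when only the 6 libraries were fitted (adjusted p 0.0306). It shares 89.5% of its 50-base stretches with the readthrough transcript BLOC1S5-TXNDC5, which had 367, 375 and 395 CPM against 288, 194 and 477 CPM. Summed, the pair had 492, 506 and 519 CPM in the controls and 521, 504 and 688 CPM at 1 µM, so replicate 2 lay within the control range and replicate 1 just above it. C1orf122 (15.7, 18.7 and 16 against 26.5, 25.8 and 32.0 CPM) and CA9, a carbonic anhydrase induced by hypoxia (6.85, 8.07 and 8.09 against 11.6, 11 and 15.1 CPM), had separate groups and adjusted p of 0.112 and 0.0886. Their log2 differences were 0.74 and 0.72, and 0.64 and 0.57 without replicate 3. FBXO16, BSCL2 and SULT1A4 lay above the controls by 0.91, 0.62 and 0.64 on the log2 scale, and CD302 and ANKRD12 below them at -0.59 and -0.61. Without replicate 3 SULT1A4 was at 0.43 and the other 4 at 0.92 (FBXO16), 0.76 (BSCL2), -0.59 (CD302) and -0.62 (ANKRD12). SULT1A4 has a near-identical copy, SULT1A3, which had 119, 135 and 119 CPM in the controls and 176, 166 and 64.8 CPM at 1 µM. The pair summed to 194, 215 and 175 CPM in the controls and 278, 253 and 206 CPM at 1 µM, so replicate 3 lay within the control range and the groups of the pair overlapped.

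Replicate 3 was set against replicates 1 and 2 to show which transcripts distinguish the libraries of this dose. This compares libraries and not conditions, and the lone library is assumed to vary like the groups. In replicate 3, 109 features were higher (0.567%) and 90 lower (0.468%), 199 or 1.03% of 19231 tested, and 166 of the 199 are protein-coding (83.4%, beside 69.2% of those tested). RPLP1, an acidic stalk protein of the ribosome, had 201 and 182 CPM in replicates 1 and 2 and 637 CPM in replicate 3, with 192 to 203 CPM in the controls and 581 to 614 CPM at 10 µM. RPLP2, its partner, had 212, 171 and 387 CPM, and the calcium-binding protein S100A6 had 20.8, 16.5 and 56.2 CPM. The mitochondrial enzymes ECHS1 (123, 95.6 and 229 CPM) and PRDX3 (226, 190 and 392 CPM) were also higher in replicate 3. The tubulins TUBA1B (1187, 1198 and 691 CPM) and TUBA1C (987, 917 and 521 CPM), the cochaperone STIP1 (369, 360 and 224 CPM) and the bromodomain protein BRD2 (249, 272 and 160 CPM) were lower in it. These 9 genes were chosen for mention after their values were seen. Of the 199, 1 feature, MT-CO1, is mitochondrial and belongs to the share that singled out replicate 3.

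Most features that set replicate 3 apart also differed at 10 µM. Of the 199, 186 (93.5%) were also past the threshold in the same direction in 10 µM against control, a comparison with none of these libraries, and they are 5.75% of the 3236 features called there (16.8% of those tested). The median absolute difference in log2 CPM over all features was 0.24 and 0.26 between replicate 3 and replicates 1 and 2, 0.17 between replicates 1 and 2, and 0.12 to 0.19 between replicate 3 and the 10 µM libraries. In a direct contrast, 2 features separated replicate 3 from the 10 µM libraries (0.0104%, with 467, or 2.43%, at an unadjusted p below 0.05). Against the controls, replicate 3 by itself differed in 924 features (4.8%), 545 higher (2.83%) and 379 lower (1.97%). RGPD6, which has near-identical copies, had 1.29 CPM in replicate 3 against 25.8, 22.1 and 22.1 CPM at 10 µM, and the feature ENSG00000269243.1 had 2.55 CPM against 0.12, 0.08 and 0.12 CPM. Replicates 1 and 2 differed from 10 µM in 2511 features, 13.1%. Whether dose, culture, library preparation or a sample exchange moves with this difference was not tested.

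**Figure D5:**
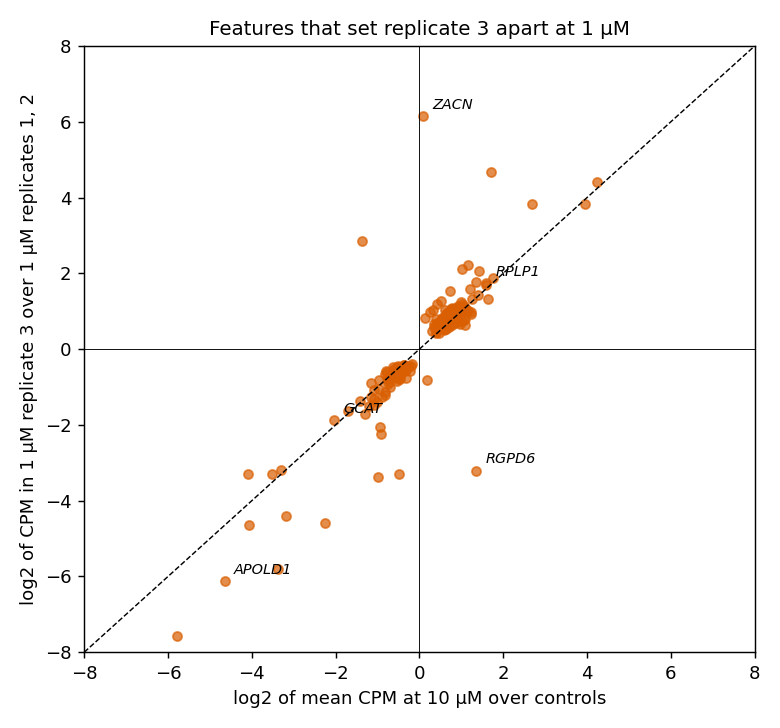
For the 199 features that differed between replicate 3 and replicates 1 and 2 at 1 µM, the log2 ratio of mean CPM at 10 µM over controls (horizontal) against the log2 ratio of CPM in replicate 3 over replicates 1 and 2 (vertical), with 0.1 CPM added. Points lie along the dashed line of equal ratios with the same sign in 196 of 199, and ZACN and RGPD6 stand off it.

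Several of the most extreme ratios within the 1 µM group belong to features that share sequence with another gene. ZACN, a zinc-activated ion channel gene, had 0.15 and 0.16 CPM in replicates 1 and 2 and 18.0 CPM in replicate 3, against 0.20 to 0.52 CPM at 10 µM, and shares nearly all of its 50-base stretches (99.96%) with EXOC7. The processed pseudogenes RPL21P75, RPL23AP42 and PPIAP22 had 13.3 and 24.5, 97.3 and 132, and 21.2 and 88.1 CPM in replicates 1 and 2. In replicate 3 they had 0, 0.13 and 0.29 CPM, and 88.2% to 88.9% of their stretches match other genes. PWP2 (0.15, 0.13 and 16.5 CPM at 1 µM) varied as much among the controls, with 0.18, 7.71 and 16.9 CPM. FAM220A had 2.97, 2.08 and 13.8 CPM, and EEF1E1 9.92, 6.10 and 33.8 CPM. EEF1E1 shares 33.95% of its stretches with other genes, mostly the readthrough transcript EEF1E1-BLOC1S5, and the pair summed to 65.5, 48.5 and 66.0 CPM, in which replicate 3 did not stand apart. APOLD1, with few shared stretches, had 20.1, 23.5 and 0.21 CPM at 1 µM, 0.17, 0.13 and 1.71 CPM at 10 µM and 11.6, 22.8 and 23.3 CPM in the controls.

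Against the neighbouring lower doses, 1 µM did not separate. No feature differed between 1 µM and 0.1 µM by edgeR's test (1180, or 6.57%, at an unadjusted p below 0.05, 4 by the Wald test of DESeq2), and none between 1 µM and 0.01 µM (947, or 5.28%, unadjusted). Against 10 µM 1 feature passed (0.00557%), an unannotated locus with 8.70, 9.56 and 7.91 CPM at 1 µM and 4.37, 4.57 and 4.54 CPM at 10 µM, while without replicate 3 2560 features passed. The 19 features had the same direction in 0.01, 0.1, 10 and 100 µM against control, and 14 of them at 1000 µM, but all doses share the 3 control libraries, so these counts are a description. The 17 features that fell were selected at 1 µM, where their median log2 fold change was -0.54, so a smaller median at another dose is no result. The median was -0.44 for the lowest dose (0.01 µM) and -0.34 for 0.1 µM. For 10 µM it was -0.45, and for 100 µM and 1000 µM it was -0.44 and -0.24. ZNF107 had 12.6 ± 1.1 CPM in the controls and 7.88 ± 0.29 CPM at 1 µM (mean ± SD, n = 3). Its mean was 8.61 CPM for 0.01 µM and 9.78 CPM for 0.1 µM, both above that of 1 µM. The higher doses gave 7.39 CPM (10 µM), 10.6 CPM (100 µM) and 5.23 CPM (1000 µM). ZNF117, at 26.3 ± 3.2 CPM, was above the controls at 1000 µM and below them at every other dose.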

How the data were processed

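The authors deposited 1 table of raw read counts per feature, whole numbers without normalization, for 37637 features (32937 with Ensembl identifiers and 4700 unannotated loci). HISAT2, DESeq2 and the build GRCh38 are named in the submitters' processing notes, without role or version. The counting tool, annotation release and use of strand are not given in the sources used here, so overlapping, antisense and near-identical genes have uncertain counts. Another 21 sample columns of the table stayed out. Groups came from the doses in the sample titles.

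Counts were filtered with filterByExpr by group (17951 features kept), given TMM factors and then fitted in edgeR 4.0.16 in R 4.3.3 (robust quasi-likelihood F-test, 2-sided, 1 fit over 21 libraries with a mean per group, Benjamini-Hochberg adjustment over all features, threshold 0.05). The SE is the absolute log2 fold change over the square root of F. CPM use TMM-scaled library sizes (summed cell type markers use total counts), and log2 CPM a prior count of 2. Replicate 3 at 1 µM was given a level of its own for the contrasts between libraries (19231 features). Library sets came from average-linkage clustering of 13 mitochondrial mRNAs (mean silhouette 0.571 for 3 sets). Within the control and 1 µM groups no replicate pair agreed within counting noise (chi-square per feature at least 8.92).

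Symbols matched 24843 identifiers, and 32329 identifiers are in GENCODE 29 (GRCh38), the source of gene positions, transcript lengths and GC content. Promoter sequences are from RefSeq (GRCh38.p14). The members, lists and tests were chosen with earlier results of these data known. Named genes were every symbol past the threshold, the 6 largest rises and falls with separate groups, at least 5 CPM and unadjusted p below 0.01 with and without replicate 3, the 4 highest and lowest ratios of replicate 3 to replicates 1 and 2, up to 3 members of each list by p, and targets of caffeine of at least 5 CPM. In simulated counts for 1 µM against control (17951 features), 4 of 50 genes changed by 1.25-fold, 27 of 50 by 1.5-fold, 44 of 50 by 2-fold and 48 of 50 by 4-fold were recovered, with 6 unchanged features called. Without replicate 3 the numbers were 3, 23, 42 and 48, with 2. Apart from the added changes the simulated counts had 1 mean per feature, without library sets, an outlying replicate or a GC trend. Recovery and false calls in the real libraries may therefore differ. Alternatives were DESeq2 1.42.0 size factors and its Wald test, limma-voom 3.58.1, other filters, a replicate block, annotated genes only, TMM on nuclear features, the 2 groups alone, library sets, each library left out and, added after seeing the data, removal of each library's GC trend.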

Additional observations from a re-analysis of the deposited data

How the results depend on the processing

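The 17 annotated genes that passed at 1 µM kept their direction in every setting run, though the settings reuse the libraries that selected them. The number of features past the threshold, 19, did not hold. It was 11 with DESeq2 size factors, 426 with the DESeq2 Wald test, 0 with no filter, 57 at a mean of at least 5 CPM, 4 with the 6 libraries alone and 10 with 5 of them (without replicate 3), where 0 of the 19 passed in either. It was 0 in the control library set alone, 113 with the library set as a term, and 2 with the GC trend removed or 3 when replicate 3 was also left out. With the replicate block it was 0. Correlations of same-numbered deviations between the control and 1 µM libraries were -0.12, -0.04 and 0.05. With 3 libraries in each of these groups, they cannot show whether the replicate numbers pair the libraries. What the fall to 0 with the block comes from was not tested. Leaving out 1 library gave 0 to 119 calls: 119 without replicate 2 at 1 µM, 83 without replicate 3 at 1000 µM, 37 without control replicate 2, 31 without replicate 2 at 100 µM, 12 without replicate 2 at 1000 µM and 0 without any of the other 16. Of the 19 themselves, 0 to 19 passed. The calls inside the gene lists, 4 in the reported fit, were 40 by the Wald test, 8 at 5 CPM, 14 with the set term, 3 with DESeq2 size factors, 0 with no filter, the block, the 2 groups alone, the control set or the GC trend removed, and 0 to 12 with a library left out.

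For 1 µM against 0.1 µM the count was 0 throughout except 4 by the Wald test. For 1 µM against 10 µM it was 1143 by the Wald test, 43 with no filter, 292 at 5 CPM, 62 with annotated genes only, 0 with the 2 groups alone, 3 with the set term, 521 with the GC trend removed and 0 to 2560 with a library left out (2560 without replicate 3 at 1 µM, 842 without replicate 3 at 1000 µM, 168 without control replicate 3). For replicate 3 against replicates 1 and 2 it was 772 by the Wald test, 346 at 5 CPM and 730 with the GC trend removed. The mitochondrial share differed by -4.78 to -1.36 percentage points with a library left out.

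Among genes that passed, had separate groups or stand for a list, 4 changed sign, LYZ (0.12 as reported), SRSF6 (-0.14), SRSF10 (-0.18) and BAX (0.33), none of which had passed the test. LYZ was at -0.014 with 5 libraries, -0.0031 in the control set, -0.021 with the set term and -0.019 without replicate 3, the lowest with 1 library left out (highest 0.22). SRSF6 was at 0.0083 with the GC trend removed, and without replicate 3 as well SRSF6 was at 0.041, SRSF10 at 0.11 and BAX at -0.021. The other caffeine targets and the genes of extreme replicate 3 ratio were compared with and without replicate 3 only. Without it PRKDC went from 0.10 to -0.13, PDE4C from 0.09 to -0.05, ITPR1 from 0.04 to -0.04, ITPR3 from -0.04 to 0.01, ZACN from 4.12 to -1.13, FAM220A from 1.15 to -0.17, EEF1E1 from 0.59 to -0.47 and APOLD1 from -0.40 to 0.19. The causes were not tested. With 3 libraries a group, the smallest fold simulated was mostly not detectable in simulated counts.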
